A study of Mus musculus with 4 samples.

Results

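Dynap, Aspg, Sema5a, Fam110c, Il1rl1, Tesc, Gdnf, Stab2 and Slpi are 9 genes that were picked, with the readings of these arrays already known, as bright genes with a large rise in cells in which lamp2a was knocked down, either against control cells or after adipogenic induction. They are 9 of 20952 genes named on the array, and every probe whose transcript accession belongs to one of them was taken, 12 of 55681 probes. The cells were 3T3-L1, an established line of mouse fibroblasts that can turn into fat cells. The 4 groups were LAMP2A- cells at day 0, control cells at day 0, LAMP2A- cells at day 2 and control cells at day 2, with 1 culture and 1 array each. Day 0 was confluence in medium with 10% serum, and by day 2 the cells had been kept in that medium with insulin at 160 nM, dexamethasone at 250 nM and 0.5 mM of the phosphodiesterase inhibitor 1-methyl-3-isobutylxanthine. The sources used here do not say how the knockdown was made or whether it was 1 clone.

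The measured quantity was the fluorescence of Cy3-labelled RNA on an Agilent array, scaled so that the 75th percentile of the spots was the same on every array, and it is called the scaled signal. A scaled signal compares 1 probe between arrays and not different genes with each other. Sums over marker genes are therefore compared between arrays only, and they follow the brightest probes of a set. Because each group had 1 array, no difference could be tested, no p-value is given, and the number of arrays limits the precision. A difference of at least 2-fold is counted, as a fixed size. Among probes printed as 10 spots, the log2 ratio had an SD over spots of 0.06 to 0.07 where the probe was bright and of 0.31 to 0.41 where it was dim, which is the error within arrays only. A gene is called bright where its mean scaled signal was above 320, a limit that 95% of 1063 olfactory receptor genes do not reach, and all 9 genes were among the 11369 bright genes. Since the 9 genes were chosen for these differences, their values below are a description.

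The proteins fall into secreted factors, receptors and surface proteins, and proteins inside the cell. Gdnf, glial cell line-derived neurotrophic factor, is a secreted ligand that binds the co-receptor Gfra1 and signals through the kinase Ret. Slpi, secretory leukocyte protease inhibitor, blocks neutrophil elastase and cathepsin G. Il1rl1, also called ST2, is the receptor of the cytokine interleukin 33 and was first found as a serum-responsive gene of mouse fibroblasts. It makes a membrane form and a secreted form, and the secreted form binds interleukin 33 without passing a signal. Stab2 encodes stabilin-2, a scavenger receptor that takes up hyaluronan and is best known from the sinusoidal endothelium of the liver. Sema5a is a transmembrane semaphorin, a guidance protein of growing axons, and plexin B3 is a known receptor of it but not the only one. Aspg encodes an asparaginase, Tesc the calcium-binding protein tescalcin, a homolog of calcineurin B, Fam110c a protein of microtubules and spindle poles known from human cells, and Dynap a membrane protein that binds dynactin in human cells. None of these 9 is a usual marker of fat cells.

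Promoter sequences of 8 of the 9 genes were taken, with 10 transcript starts, from RefSeq on build GRCm38.p6. Dynap was left out of this search. Those shown are the 2 starts of the receptor gene Il1rl1, because probes of its transcripts gave different ratios, and the starts of Slpi, Gdnf and Fam110c, because a motif was found there. Each line gives the 250 bases before a transcript start, 5′ to 3′ on the strand of the gene, with capitals for a motif match, and the downstream start of Il1rl1 has none.
Il1rl1, upstream start, chr1:40429320-40429569, + strand: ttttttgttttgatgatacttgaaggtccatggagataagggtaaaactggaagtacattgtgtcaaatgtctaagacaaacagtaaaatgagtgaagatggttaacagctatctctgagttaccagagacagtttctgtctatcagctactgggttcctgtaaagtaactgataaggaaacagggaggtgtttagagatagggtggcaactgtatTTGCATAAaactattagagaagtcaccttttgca
Il1rl1, downstream start, chr1:40439379-40439628, + strand: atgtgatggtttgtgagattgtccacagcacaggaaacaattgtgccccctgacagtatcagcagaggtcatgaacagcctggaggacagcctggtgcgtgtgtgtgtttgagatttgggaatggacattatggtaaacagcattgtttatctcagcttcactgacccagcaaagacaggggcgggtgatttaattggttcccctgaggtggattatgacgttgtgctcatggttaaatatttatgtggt
Slpi, chr2:164356508-164356757, - strand: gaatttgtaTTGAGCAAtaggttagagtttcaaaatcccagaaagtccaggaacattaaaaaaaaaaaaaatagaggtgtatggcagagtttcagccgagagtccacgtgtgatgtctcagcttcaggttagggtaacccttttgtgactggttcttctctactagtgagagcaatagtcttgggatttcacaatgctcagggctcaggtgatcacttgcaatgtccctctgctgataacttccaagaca
Gdnf, upstream start, chr15:7809798-7810047, + strand: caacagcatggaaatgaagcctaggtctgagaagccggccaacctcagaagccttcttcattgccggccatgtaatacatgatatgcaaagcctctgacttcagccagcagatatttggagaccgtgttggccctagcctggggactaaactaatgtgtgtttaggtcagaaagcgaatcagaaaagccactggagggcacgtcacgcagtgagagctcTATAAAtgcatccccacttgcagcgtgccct
Fam110c, chr12:31073718-31073967, + strand: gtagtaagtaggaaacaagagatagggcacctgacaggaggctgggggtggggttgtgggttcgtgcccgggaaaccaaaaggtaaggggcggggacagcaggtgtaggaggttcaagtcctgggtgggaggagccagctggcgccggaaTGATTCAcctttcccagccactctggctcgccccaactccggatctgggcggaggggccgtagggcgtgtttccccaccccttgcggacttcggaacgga

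The motifs were searched on both strands, from 250 bases before each start to 50 after it. The C/EBP letters TTGCNNAA stood at 2 of the 10 starts, the upstream start of Il1rl1 and that of Slpi, against 10.8% of 32851 starts of all genes. The TATA box letters TATAAA stood 31 bases before the upstream start of Gdnf, at 1 of the 10 starts, against 13.6% of all. The AP-1 letters TGANTCA were found once, before Fam110c, against 7.81% of all starts. The cAMP response element TGACGTCA and the glucocorticoid element, searched as an imperfect palindrome, were in none of the 10 windows, and in 1.79% and 0.475% of all. The 4 matches lie apart from each other and describe letters only. The starts ranged from 38.7% G and C bases, at the upstream start of Il1rl1, to 74.7% at Tesc, with a median of 52.3%, against 52.7% over all starts. The 2 starts of Il1rl1 lie 10059 bases apart and those of Gdnf 3679.

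The arrays differed in ways that touch the day 0 readings. The control day 0 array was on a slide of its own and the other 3 arrays shared another, and in the day 0 comparison and the control time course the slide and the group cannot be told apart. Of the 59305 spots, 88.6% were well above background on the LAMP2A- day 0 array, against 67.4% on the control day 0 array, and 78.7% were on the LAMP2A- day 2 array, against 84.2% on the control day 2 array. Spots of the olfactory receptor genes, proteins of the nose, had a median scaled signal of 35.3 against 9.32 at day 0 and of 31.0 against 33.4 at day 2. In the second lowest of 5 brightness classes the median log2 ratio at day 0 was 0.99, in the third, which holds Stab2, Aspg, Tesc, Fam110c and Dynap, it was 0.14, and in the 2 highest, which hold the other 4 genes, it was -0.06 in each. The part of the array in the day 0 readings was not tested, and the day 2 comparison and the LAMP2A- time course lie within 1 slide. The Lamp2 probe annotated to NM_001017959 read 6668 in LAMP2A- cells and 27515 in control cells at day 0, and 4532 and 15964 at day 2, which is 4.13-fold and 3.52-fold lower in LAMP2A- cells. The other Lamp2 probe, annotated to NM_010685, was 1.28-fold and 1.09-fold lower. Of 9 fibroblast and preadipocyte markers 8 were bright, with sums of 1054670 in LAMP2A- cells and 1087120 in control cells at day 0, and of 829391 in LAMP2A- cells and 883016 in control cells at day 2, most of it from Col1a2, Dlk1 and Col3a1. Single markers differed more: Thy1 had 17305 in LAMP2A- cells and 51426 in control cells at day 0, and at day 2 Pdgfrb had 2752 and 5687 and Cd34 12.6 and 181. Pdgfra went the other way, with 35110.5 in LAMP2A- cells and 20545 in control cells at day 0 and 46833 and 34827 at day 2. Ly6a was higher in LAMP2A- cells at day 2 only, at 44636.5 and 37116.

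Against control cells, 8 of the 9 genes were at least 2-fold higher in LAMP2A- cells at both days, and Fam110c was not. The 8 were Gdnf, Slpi, Il1rl1, Stab2, Sema5a, Aspg, Tesc and Dynap. At day 0 the 8 were higher by 2-fold or more and Fam110c was lower by its brightest probe, with a median log2 ratio of 2.44 over the 9 genes and -0.02 over all bright genes. Of all bright genes 5.6% lay above that size and 3.05% below its inverse at day 0, and of all compared genes 18.4% and 4.15%. At day 2 those 8 were higher again and Fam110c differed by under 2-fold, with a median of 3.36 over the 9, against 0.04 over all bright genes, of which 3.01% were at least 2-fold higher and 3.63% lower. Of all compared genes 2.85% were higher and 4% lower at day 2. Being higher by that size at both days was seen for 106 of 11369 bright genes, or 0.932%, and for 0.983% of all genes compared at both days. The 106 are 16.6% of the 637 bright genes higher at day 0 and 31.0% of the 342 higher at day 2. Nothing is read from these shares about the 9 genes, since they were chosen on the same values. Among all compared genes past 2-fold at day 0, 81.5% were higher in the main setting, 71.8% with normexp background correction, 45.9% after quantile normalization and 36.5% after cyclic loess.

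No numerical limit defined the choice, and it did not end at a rank. Genes left out ranked above some of the 9. In the main setting, Dynap, Aspg and Sema5a ranked 1, 2 and 3 among bright genes at day 0, and the highest gene left out was Snhg18, at rank 4 and 9.59-fold higher. At day 2, Tesc, Gdnf, Stab2 and Slpi ranked 1 to 4, and the highest gene left out was Ramp3, at rank 5 and 12.1-fold higher. The control day 0 signals of Dynap, Aspg and Tesc were 207, 95.8 and 131, under the limit of 320. The control day 2 signals of Dynap, Stab2 and Tesc were 88.4, 88.3 and 248, under it too. These genes therefore count as bright through their other arrays, which for Dynap and Tesc are the LAMP2A- arrays. Their ranks among bright genes rest on that. Genes with a mean signal between 56.8 and 292 had the median log2 ratio of 0.99 at day 0. The order changed with the setting: after quantile normalization Sema5a, at a log2 ratio of 3.95, was above Dynap, at 3.89, at day 0, and with normexp Stab2, at 3.12, was below Slpi, at 3.61, at day 2. In the main setting the lowest rank of the 8 genes was 384, for Stab2 at day 0, and 40, for Aspg at day 2. The 10 highest ratios to control cells held 3 of the 9 genes at day 0 and 5 at day 2. The 100 highest held 7 at day 0 and 8 at day 2.

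**Figure D1:**
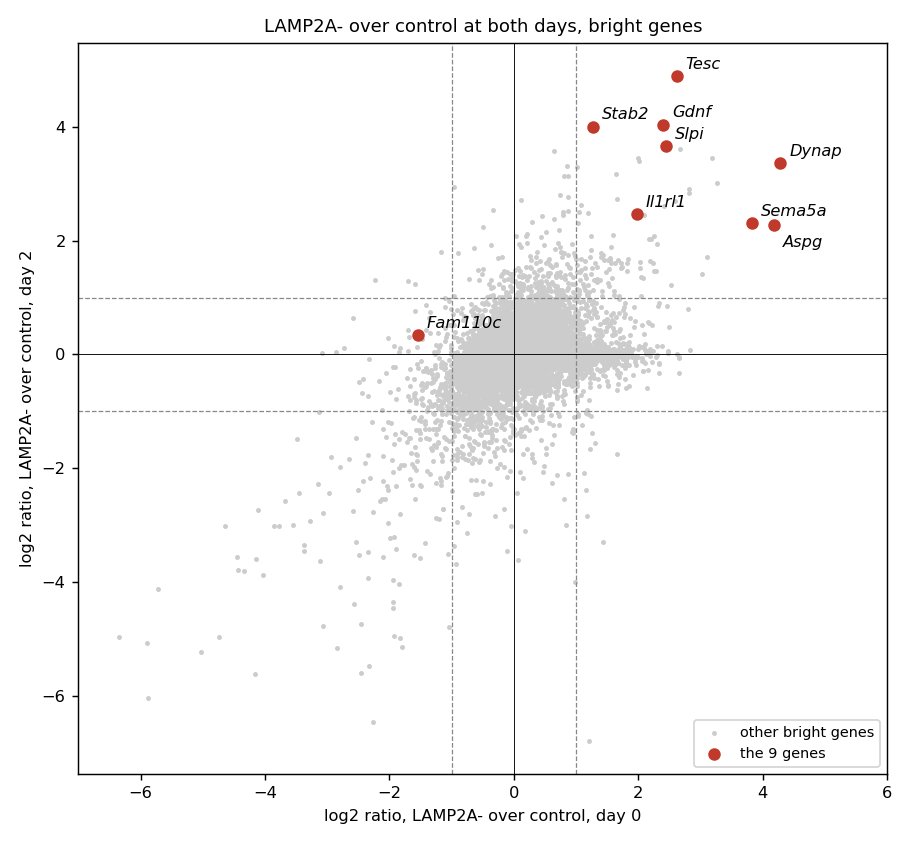
Log2 ratio of LAMP2A- over control cells at day 0 (horizontal axis) and at day 2 (vertical axis) for the 11369 bright genes, with the 9 genes in red and dashed lines at 2-fold. Of the red points, 8 lie in the upper right corner beyond both lines, and Fam110c lies at -1.54 and 0.33.

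**Figure D2:**
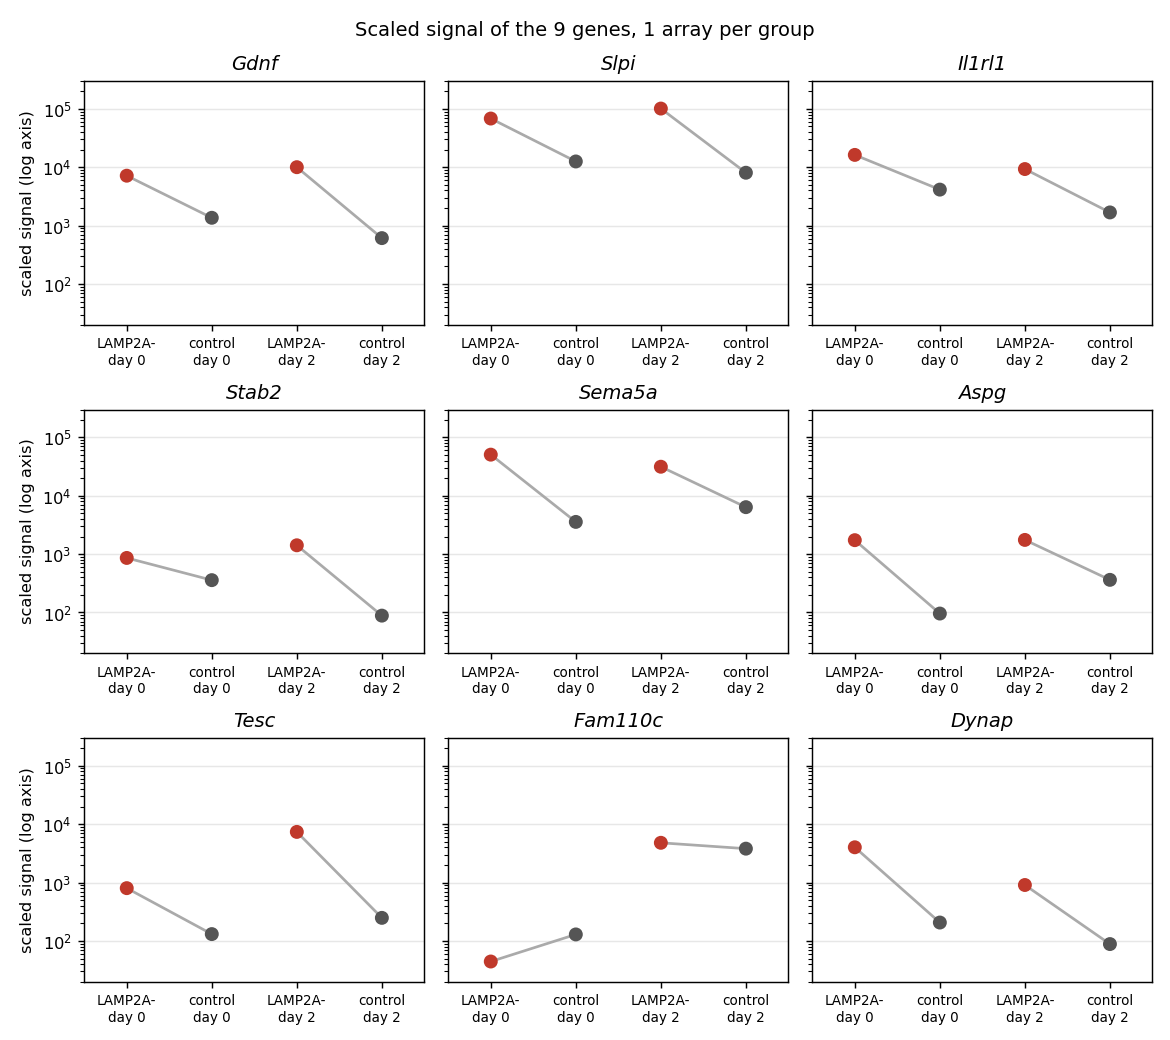
Scaled signal of each of the 9 genes on the 4 arrays, on a log axis, with LAMP2A- cells in red, control cells in grey and a line joining the 2 arrays of a day. Each point is 1 array, so there is no error bar, and the red point is the higher one at both days for every gene except Fam110c at day 0.

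Among the secreted proteins, Gdnf had scaled signals of 7168 in LAMP2A- cells and 1363 in control cells at day 0, then 10028 in LAMP2A- cells and 611 in control cells at day 2. Both LAMP2A- arrays were above both control arrays. The gene was 5.26-fold higher at day 0 and 16.4-fold higher at day 2, so the log2 ratio was larger at day 2 by 1.64. With induction it was 1.40-fold higher in LAMP2A- cells and 2.23-fold lower in control cells.

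Slpi had scaled signals of 68318 in LAMP2A- cells and 12571 in control cells at day 0, and 101268 in LAMP2A- cells and 8056 in control cells at day 2. The inhibitor was 5.43-fold and 12.6-fold higher in LAMP2A- cells, and its order over the arrays was that of Gdnf. From day 0 to day 2 it was 1.48-fold higher in LAMP2A- cells and 1.56-fold lower in control cells.

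Il1rl1, the interleukin 33 receptor, had 16281 in LAMP2A- cells and 4140.5 in control cells at day 0, and 9318 in LAMP2A- cells and 1683 in control cells at day 2, by its brightest probe, annotated to NM_010743. It was higher in LAMP2A- cells by 3.93-fold at day 0 and by 5.54-fold at day 2. At day 2 it was lower than at day 0 in both kinds of cell, by 1.75-fold in LAMP2A- cells and by 2.46-fold in control cells. The gene has 3 probes, and the other 2 are annotated to NM_001025602. The brighter of these gave 5246 against 1705 at day 0 and 3048 against 1062 at day 2 in LAMP2A- and control cells, or 3.08-fold and 2.87-fold higher. The dimmer one gave 164 against 37.1 at day 0 and 68.7 against 25.1 at day 2, or 4.43-fold and 2.74-fold higher. All 3 probes were thus higher in LAMP2A- cells at both days. At day 2 the log2 ratio of the NM_010743 probe exceeded that of the brighter NM_001025602 probe by 0.95, and at day 0 by 0.35. In RefSeq, NM_010743 is the transcript of the secreted form and NM_001025602 that of the membrane form, and the files do not say which transcripts each probe reads.

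Stab2 had 859 in LAMP2A- cells and 358 in control cells at day 0, and 1415 in LAMP2A- cells and 88.3 in control cells at day 2. It was 2.40-fold higher at day 0 and 16.0-fold higher at day 2. At day 0 the log2 ratio was 1.26, or 0.93 after quantile normalization and 0.80 after cyclic loess, so under these settings it stayed below 2-fold and 7 genes in place of 8 were higher at both days. With normexp the log2 ratio at day 2 was 3.12, a fold more than 1.5 times smaller. With induction Stab2 was 1.65-fold higher in LAMP2A- cells and 4.05-fold lower in control cells, a log2 ratio of -2.02, or -1.40 with normexp. Markers of liver sinusoidal endothelium, where Stab2 is best known, were all dim, with summed signals over 4 genes of 460 in LAMP2A- cells and 216 in control cells at day 0 and of 638 and 471 at day 2. Most of that was Clec4g, at 288 in LAMP2A- cells and 185 in control cells at day 0 and 428 and 337 at day 2. Fcgr2b was not well above background on any array. The sum over 5 general endothelial markers was 4308 in LAMP2A- cells and 4095 in control cells at day 0, and 5411 in LAMP2A- cells and 5496 in control cells at day 2, most of it from Kdr. Their part in the Stab2 reading was not tested, and more cells of a kind cannot be told apart from more RNA per cell in such samples.

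Sema5a had 50540.7 in LAMP2A- cells and 3560.3 in control cells at day 0, and 31377 in LAMP2A- cells and 6369 in control cells at day 2. The guidance protein was 14.2-fold higher at day 0 and 4.93-fold higher at day 2. The day 0 ratio was thus the larger one, by 1.53 on the log2 scale. From day 0 to day 2 Sema5a was 1.61-fold lower in LAMP2A- cells and 1.79-fold higher in control cells.

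Inside the cell, Aspg had 1732 in LAMP2A- cells and 95.8 in control cells at day 0, and 1749 in LAMP2A- cells and 362 in control cells at day 2. The enzyme was 18.1-fold higher at day 0 and 4.83-fold higher at day 2. The readings in LAMP2A- cells on the 2 days differed by 1.01-fold, within the spread of repeat spots, while in control cells the gene was 3.78-fold higher at day 2. The log2 ratio at day 0 was 4.18, or 3.43 with normexp, and that between the days in control cells 1.92, or 1.22 after quantile normalization.

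Tesc had 802 in LAMP2A- cells and 131 in control cells at day 0, and 7373 in LAMP2A- cells and 248 in control cells at day 2. It was 6.12-fold higher at day 0 and, at 29.7-fold, the highest-ranked bright gene at day 2. Tescalcin was also the only one of the 8 shared genes that was at least 2-fold higher at day 2 than at day 0 in LAMP2A- cells, by 9.19-fold, against 1.90-fold in control cells, where the log2 ratio was 0.92, or 0.25 after quantile normalization.

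Dynap had 4020.4 in LAMP2A- cells and 207 in control cells at day 0, and 908 in LAMP2A- cells and 88.4 in control cells at day 2. It was 19.5-fold higher at day 0 and 10.3-fold higher at day 2, where the log2 ratio was 3.36, or 2.53 with normexp. At day 2 the gene was lower than at day 0 in both kinds of cell, by 4.43-fold in LAMP2A- cells and 2.34-fold in control cells, a log2 ratio of -1.23 in control cells, or -0.67 with normexp and -1.89 after quantile normalization.

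Fam110c did not have the pattern of the other 8 genes. Its brighter probe read 44.4 in LAMP2A- cells and 129 in control cells at day 0, and 4799 in LAMP2A- cells and 3809 in control cells at day 2. Both day 2 arrays were far above both day 0 arrays, and LAMP2A- and control cells differed by 1.26-fold at day 2. The dimmer probe read 88.0 in LAMP2A- cells and 81.4 in control cells at day 0, and 772 in LAMP2A- cells and 627 in control cells at day 2. At day 0 the log2 ratio of LAMP2A- to control cells was -1.54 by the brighter probe and 0.11 by the dimmer one, and -2.41 by the brighter one after quantile normalization, on signals below the limit for bright genes. From day 0 to day 2 the brighter probe was 108-fold higher in LAMP2A- cells and 29.5-fold higher in control cells. In the main setting its ranks among bright genes were 1 in LAMP2A- cells and 12 in control cells. Both of its day 0 signals were below the limit, so Fam110c counts as bright through its day 2 arrays. Those ranks rest on that. Among all compared genes its rank was 2 of 19192 in LAMP2A- cells and 18 of 18651 in control cells. The dimmer probe was 8.78-fold higher at day 2 than at day 0 in LAMP2A- cells and 7.71-fold higher in control cells. In LAMP2A- cells the log2 ratio of the brighter probe was 6.76, or 5.75 with normexp. Its place among genes raised in LAMP2A- cells therefore rests on induction and not on a difference from control cells.

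The 2 LAMP2A- arrays were the 2 highest for all 8 shared genes. Of the 9 genes, 2 were at least 2-fold higher at day 2 than at day 0 in LAMP2A- cells, Tesc and Fam110c, and 1 was lower, Dynap, beside 6.18% and 9.24% of all bright genes and 4.96% and 8.96% of all compared genes. In control cells 2 were higher, Aspg and Fam110c, and 4 were lower, Gdnf, Il1rl1, Stab2 and Dynap, beside 7.64% and 7.66% of bright genes and 20.1% and 8.02% of all compared genes. The median log2 ratio over the 9 genes was 0.48 in LAMP2A- cells and -0.64 in control cells, against 0.08 and 0.03 over all bright genes. By the brightest probe of each, the ratio to control cells was larger at day 2 for Tesc, Stab2, Gdnf, Slpi and Il1rl1. It was larger at day 0 for Aspg, Sema5a and Dynap. The other 2 probes of Il1rl1 had the larger log2 ratio at day 0, with 1.62 and 2.15, against 1.52 and 1.45 at day 2. The differences between the log2 ratios, day 2 minus day 0, ranged from 2.74 for Stab2 to -1.90 for Aspg. There was no day 2 culture free of hormones, so hormones and time cannot be told apart.

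**Figure D3:**
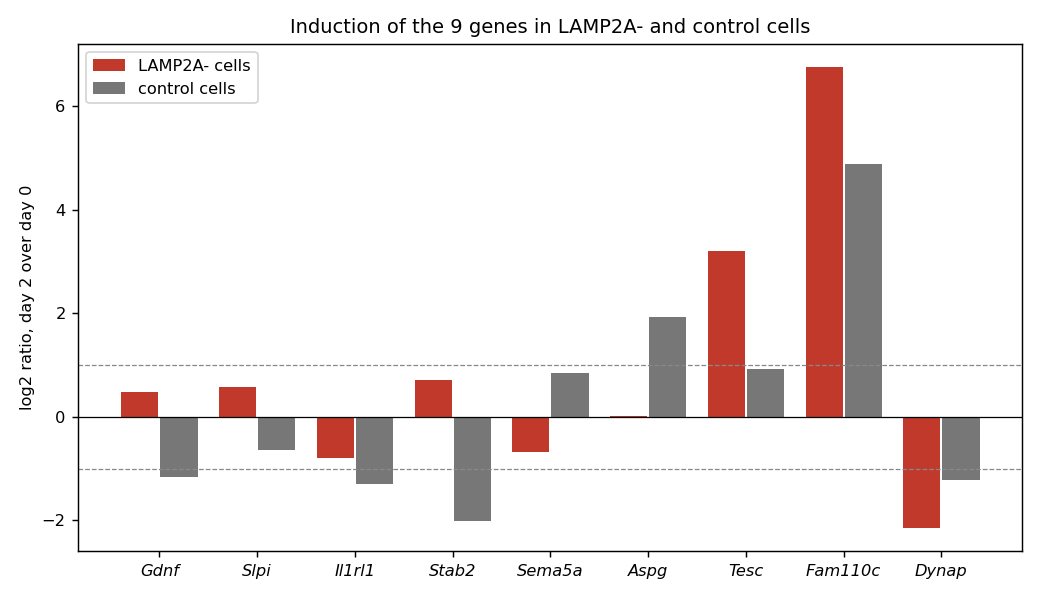
Log2 ratio of day 2 over day 0 for the 9 genes, as bars from 0, in LAMP2A- cells (red) and control cells (grey), with dashed lines at 2-fold. Fam110c has the tallest bars in both kinds of cell, and Gdnf, Slpi and Stab2 have bars above 0 in LAMP2A- cells and below 0 in control cells.

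Il33, the ligand of Il1rl1, had 734 in LAMP2A- cells and 1424 in control cells at day 0, and 8636 in LAMP2A- cells and 1130 in control cells at day 2. Only the LAMP2A- day 2 array was high, so the cytokine was 7.65-fold higher in LAMP2A- than in control cells at day 2 and had a log2 ratio of -0.96 at day 0. From day 0 to day 2 it was 11.8-fold higher in LAMP2A- cells, with a log2 ratio of -0.33 in control cells. The co-receptor Il1rap read 813 against 647 at day 0 and 574 against 1080.1 at day 2, and the adaptor Myd88 4291 against 6249 and 5913 against 6679. Over the 15 genes of interleukin 33 receptor signalling, 2 dim genes lay above 2-fold and 0 below in LAMP2A- cells at day 0, beside 18.4% and 4.15% of all compared genes, with a median log2 ratio of -0.04, against 0.12 over all compared genes. At day 2, Il33 was the 1 gene higher and 2 were lower, neither of them bright on average, beside 2.85% and 4% of all compared genes, and the median was -0.18, against 0.00. Of the lower ones, Il1rn, the interleukin 1 receptor antagonist, which is named after its values were seen, had 213 in LAMP2A- cells and 1869 in control cells at day 2, or 8.76-fold lower, and from day 0 to day 2 it was 16.0-fold higher in control cells. The interleukin 1 receptor gene Il1r1 was 2.90-fold higher at day 2 in LAMP2A- cells and 2.72-fold higher in control cells. Mast cells and lymphocytes are cells known to carry Il1rl1. Over 4 genes, markers of mast cells summed to 878 in LAMP2A- cells and 528 in control cells at day 0 and to 1044 and 983 at day 2. Most of that was Tpsb2, at 793 and 508 at day 0 and 961 and 886 at day 2. Fcer1a was not well above background on any array. The 4 lymphocyte markers summed to 5857 in LAMP2A- cells and 3435 in control cells at day 0 and to 5256 and 5967 at day 2. Markers of leukocytes and macrophages summed to 41978 in LAMP2A- cells and 22801 in control cells at day 0 and to 51574 and 37078 at day 2 over 4 genes. Most of that was Itgam, at 38063 in LAMP2A- cells and 19779 in control cells at day 0 and 48910 in LAMP2A- cells and 33383 in control cells at day 2, while Ptprc was dim, at 92.2 against 38.4 and 92.2 against 108. Csf1r had 3675 against 2892 at day 0 and 2423 against 3428 at day 2. Adgre1, also dim, had 148 against 91.4 and 149 against 158. Their part in the Il1rl1 reading was not tested.

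**Figure D4:**
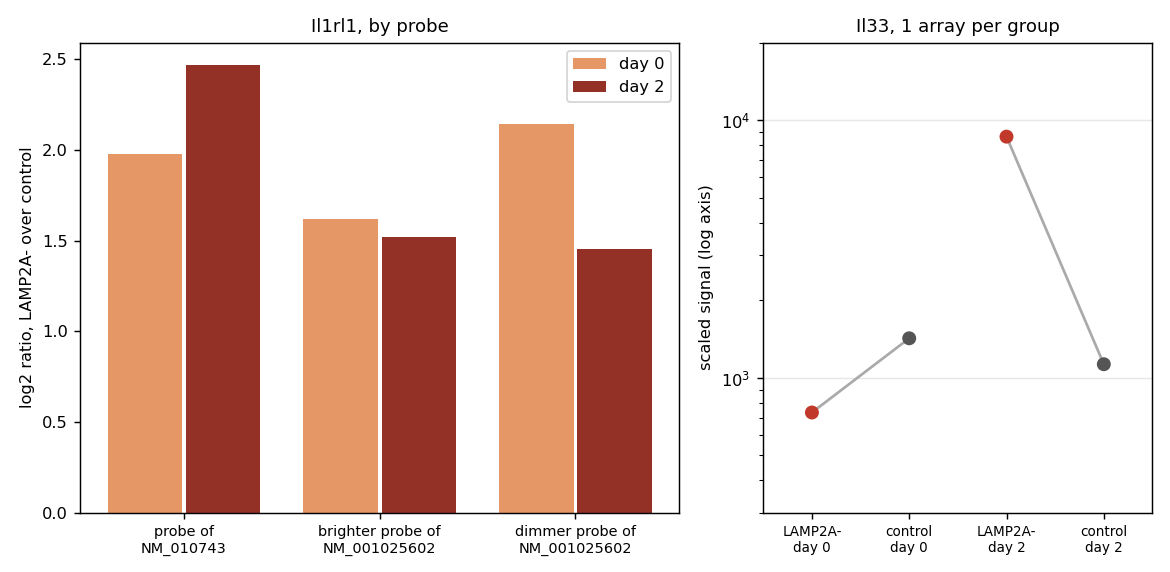
Left, log2 ratio of LAMP2A- over control cells at day 0 and day 2 for the 3 probes of Il1rl1, as bars from 0. Right, scaled signal of Il33 on the 4 arrays, on a log axis, with LAMP2A- cells in red and control cells in grey, 1 array per point, where the LAMP2A- day 2 array at 8636 is the high one.

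The signalling receptors of Gdnf were dim on average or not detected. The kinase gene Ret was not well above background on any array, and the dim co-receptor gene Gfra1 had 184 in LAMP2A- cells and 92.3 in control cells at day 0 and 108 and 73.6 at day 2. Gfra2, of the same receptor family and dim on average, had 1175 in LAMP2A- cells and 377 in control cells at day 0, or 3.12-fold higher. At day 2 it had 103 in LAMP2A- cells and 124 in control cells. Ncam1, an alternative receptor, was bright, with 31351 in LAMP2A- cells and 28043 in control cells at day 0, and 32986 in LAMP2A- cells and 21224 in control cells at day 2. Of 9 compared genes of the GDNF ligand and receptor family, 3 dim genes were at least 2-fold higher at day 0, beside 18.4% of all compared genes, with a median of 0.84, against 0.12 over all compared genes. Of the 4 bright genes of the family 0 were past 2-fold at day 0, with a median of 0.09. Of all bright genes 5.6% were higher and 3.05% lower. None of the 9 compared genes of the family was past 2-fold at day 2, with a median of 0.01. Of all compared genes 2.85% were higher and 4% lower at day 2. Gdf15, a distant relative of these ligands, was 3.31-fold lower at day 2 than at day 0 in LAMP2A- cells and 2.10-fold lower in control cells. Markers of Schwann and neural cells, which use Gdnf and Sema5a, summed to 2268 in LAMP2A- cells and 809 in control cells at day 0 and to 1142 and 1170 at day 2 over 4 genes, and their part was not tested.

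Other semaphorins and plexins went both ways. Of 28 compared at day 0, 3 lay above 2-fold in LAMP2A- cells and 7 below, beside 18.4% and 4.15% of all compared genes, with a median of -0.10, against 0.12 over all compared genes. Of 27 at day 2, 3 were higher and 2 lower, beside 2.85% and 4%, with a median of -0.15, against 0.00. Sema7a and Sema4g were 4.52-fold and 4.25-fold higher at day 0, and Sema3c, a secreted semaphorin, was 7.25-fold lower. At day 2, Sema4g was 5.43-fold and the co-receptor Nrp2 3.31-fold higher, and Sema3a was 4.20-fold lower. Sema7a was 35.7-fold lower at day 2 than at day 0 in LAMP2A- cells and 11.5-fold lower in control cells. Plxnb3, the gene of a known receptor of Sema5a, was dim, at 113 in LAMP2A- cells and 114 in control cells at day 0. At day 2 it had 67.8 in LAMP2A- cells and 89.0 in control cells. The sister gene Sema5b was dim as well.

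Of 13 hyaluronan genes, the group of Stab2, 5 were higher by 2-fold or more and 2 lower at day 0, beside 18.4% and 4.15% of all compared genes, with a median of 0.58, against 0.12 over all compared genes. Of its 7 bright genes 2 were higher and 1 lower, beside 5.6% and 3.05% of all bright genes. Tnfaip6, a secreted hyaluronan-binding protein, was 2.20-fold higher at day 0 and 3.13-fold higher at day 2, and the motility receptor gene Hmmr was 2.14-fold higher at day 0. The synthase gene Has2 was 2.16-fold lower in LAMP2A- cells at day 0. At day 2, 2 of 12 hyaluronan genes were higher and 0 lower, beside 2.85% and 4%, with a median of -0.02. The sister gene Stab1 was dim, with 101 in LAMP2A- cells and 21.1 in control cells at day 0, and 133 in LAMP2A- cells and 56.3 in control cells at day 2.

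Of 15 protease inhibitors and proteases related to Slpi, 8 were higher by 2-fold or more and 1 lower at day 0, beside 18.4% and 4.15% of all compared genes, with a median of 1.02, against 0.12 over all compared genes. Over the 6 bright ones 1 was higher and 1 lower, beside 5.6% and 3.05% of all bright genes, and the median was -0.21. At day 2, 3 of the 15 were higher and 2 lower, beside 2.85% and 4%, with a median of -0.06. Of the bright ones 2 were higher and 2 lower, beside 3.01% and 3.63% of all bright genes. Elane, the elastase that Slpi blocks, had 2850 in LAMP2A- cells and 1407 in control cells at day 0 and 2049.8 and 2337 at day 2. Serpinb1a, a further elastase inhibitor, was lower by 2.28-fold at day 0 and by 2.36-fold at day 2, and the protease inhibitor gene Serpine2 was 2.36-fold higher at day 2. Slpi is best known from epithelia, and 5 epithelial markers summed to 894 in LAMP2A- cells and 249 in control cells at day 0 and to 533 and 513 at day 2. Epcam was not well above background on any array and Krt8 was on 1. The leukocyte sums given beside Il1rl1 were also higher in LAMP2A- cells at both days. At day 2 this came from Itgam, while Csf1r, Adgre1 and Ptprc were lower. The part of either in the Slpi reading was not tested.

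Of 9 genes of asparagine and aspartate metabolism, 1 dim gene was higher and 0 lower by 2-fold at day 0, beside 18.4% and 4.15% of all compared genes. The list median was -0.34, against 0.12 over all compared genes. At day 2, 0 were higher and 1 was lower, beside 2.85% and 4%, with a median of -0.05, against -0.001. The lower one was the amino acid transporter gene Slc1a5, by 3.11-fold. The asparagine synthetase gene Asns had 51642 in LAMP2A- cells and 71205 in control cells at day 0, and 32672 in LAMP2A- cells and 52020.1 in control cells at day 2. The list of calcineurin B homologs, calcineurin subunits and related genes had no member past 2-fold between LAMP2A- and control cells at day 0, of 8 compared, or at day 2, of 7. Of all compared genes 18.4% were higher and 4.15% lower at day 0, and 2.85% and 4% at day 2. From day 0 to day 2, 3 of 8 genes of the list were higher in LAMP2A- cells, Ppp3cc by 2.59-fold, Chp1 by 2.31-fold and Ppp3ca by 2.01-fold, beside 4.96% of all compared genes. In control cells 0 of 7 passed 2-fold, beside 20.1% of all compared genes, but the same genes came close, with Ppp3cc at 1.96-fold, Chp1 at 1.97-fold and Ppp3ca at 1.81-fold higher, and the difference between the cells was not tested. The 12 dynactin subunits and Akt kinases, and the 3 relatives and partners of Fam110c, had no member past 2-fold in any of the 4 comparisons. All of them are bright. Of all bright genes 5.6% were higher and 3.05% lower at day 0, and 3.01% and 3.63% at day 2. Between the days the shares were 6.18% and 9.24% in LAMP2A- cells and 7.64% and 7.66% in control cells. Nothing is read from lists this small beside such shares.

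The genes closest to each of the 9 were found by the distance between the 4 mean-centred log2 levels, among 11355 other bright genes well above background on all 4 arrays. Spp1, which encodes osteopontin, was the closest gene to Gdnf, Slpi and Stab2, at distances of 0.61, 0.35 and 0.92. It had 32615 in LAMP2A- cells and 8184 in control cells at day 0, and 54042 and 4959 at day 2. Pcolce2 and Rap1gap were closest to Il1rl1, at 0.31 and 0.44, and Mgst2 was second for Gdnf, Slpi and Sema5a, at 0.92, 0.82 and 1.03. Pcolce2 was second for Stab2, at 0.99, and Zfp286 first for Sema5a, at 1.02. Sis was the closest gene to both Aspg and Tesc, at 1.20 and 1.25, and Adgrb2 was second for Tesc, at 1.38. Gsdmd and Snhg18 were closest to Dynap, at 1.08 and 1.12, and the acute-phase gene Orm3, which has near-identical copies, and Rgs2 to Fam110c, at 1.06 and 1.88. The distance describes 4 readings per gene and nothing more.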

How the data were processed

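Total RNA of 4 mouse 3T3-L1 cultures was read on Agilent arrays of design 028005, 1 array per group, with groups taken from the labels. Per the file headers, the deposited intensity values are processed signals of Agilent Feature Extraction 10.7.3.1, with a fitted background taken off and, on 3 arrays but not on that of LAMP2A- day 0, a multiplicative trend removed. They are linear and not normalised between arrays, and other columns hold the software's marks of 0 or 1 per spot. No spot was saturated.

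From these, control spots and outlier spots were left out, signals were put on the log2 scale relative to their array's 75th percentile, repeat spots were averaged, and 27650 probes were named through RefSeq accessions (GRCm38.p6, names only). The probe with the highest mean level stands for a gene. Comparisons took genes well above background on at least 1 of both arrays, with a bound for the other, and all values of the 9 genes were measured on all 4 arrays. The 9 genes and the gene lists were chosen with earlier results of these data known. Named genes are the 9, Lamp2, up to 3 bright members per list and comparison past 2-fold and the 2 closest genes to each of the 9. Partners of the 9 genes under 2-fold, dim partners, the highest gene left out and marker genes are named beside the rule, and a few genes that the rule takes in are not reported here. Alternatives were normexp with an offset of 50, on median signals because the files hold no mean spot signal, quantile and cyclic loess normalization (3 iterations), scaling over probes well above background, the median probe, outliers kept, the signal before detrending, a 1.5-fold size and other filters on dim probes. Bright genes only and each further probe were added after the data were seen. Simulated data with known changes were used to test the calls. Tools were limma 3.58.1 under R 4.3.3 and, under Python 3.11.15, pandas 2.3.3, numpy 2.4.6 and matplotlib 3.10.9.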

Additional observations from a re-analysis of the deposited data

Results flagged for a closer look

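Readings of 5 genes went opposite ways under the same comparison in 2 settings of the study, each by more than 2 SD of repeat spots. With 1 array per group these differences were not tested. With induction, the log2 ratio of day 2 over day 0 was 0.48 in LAMP2A- cells and -1.16 in control cells for Gdnf, 0.57 and -0.64 for Slpi, 0.72 and -2.02 for Stab2, and -0.69 and 0.84 for Sema5a. For Fam110c the log2 ratio of LAMP2A- over control cells was 0.33 at day 2 and -1.54 at day 0, by its brighter probe, whose day 0 signals are dim. The time course of control cells and the day 0 comparison cross slides.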

How the results depend on the processing

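With 1 array per group no array could be left out. No paired analysis was possible because each group holds 1 array and the labels give no replicate numbers. Of 252 readings of the 9 genes under the 7 settings that can move a ratio, 250 kept their sign, and the other 2 were of Aspg between the days in LAMP2A- cells, near 0. None of the 182 readings of differences past 2-fold turned, and 5 went below 2-fold: Stab2 at day 0, at 0.93 and 0.80 after quantile and cyclic loess normalization, Dynap between the days in control cells, at -0.67 with normexp, and, with the median of all probes, Il1rl1 between the days in control cells, at -0.68, and Fam110c at day 0, at -0.71, which leaves 0 of the 9 genes lower at day 0. The dimmer probe of Fam110c gave 0.11 at day 0, against -1.54. At a 1.5-fold size 3 of the 9 genes were lower between the days in LAMP2A- cells and 4 higher in control cells.

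Counts over all genes moved more; the cause was not tested. At day 0, 3536 genes were higher and 800 lower in LAMP2A- cells. The higher ones were 1387 with normexp, 1100 after quantile and 994 after cyclic loess normalization, 5631 at 1.5-fold, 5516 with no filter and 637 among bright genes, and the lower ones 1295 after quantile, 1726 after cyclic loess, 1716 at 1.5-fold and 347 among bright genes. At day 2, 529 were higher and 743 lower, against 1459 and 1678 at 1.5-fold and 342 and 413 among bright genes, with 453 lower with normexp and 1298 with no filter. Between the days, 952 were higher and 1719 lower in LAMP2A- cells, against 2481 and 3088 at 1.5-fold, with 1051 lower among bright genes. In control cells 3749 were higher and 1496 lower. The higher ones were 1908 with normexp, 1266 after quantile and 1153 after cyclic loess normalization, 5915 at 1.5-fold, 5685 with no filter and 869 among bright genes, and the lower ones 2623 after cyclic loess, 2685 at 1.5-fold and 871 among bright genes. The share of called genes that were higher was 71.5% there, 37.2% after quantile and 30.5% after cyclic loess normalization.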
